A study of Homo sapiens with 42 samples.

Results

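The BCL2 family survival and death genes are 10 genes that set whether a cell keeps or loses the barrier of its mitochondria: MCL1, BCL2, BCL2L1, BCL2L2, BAX, BAK1, BCL2L11, BID, BBC3 and PMAIP1. They were taken by symbol from a table of 26228 gene rows and followed across all 14 groups of the study. Each symbol had 1 row, so the splice forms of MCL1, BCL2L1 and BCL2L11 were not separated. All 10 genes were at 1 FPKM (fragments scaled for transcript length and for the size of the library) or more in all 42 libraries, and all 10 were among the 12816 genes tested.

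The study used HAP1, a near-haploid human line from a chronic myelogenous leukaemia, as HAP1 WT and as HAP1 CDK7 C312S, in which the cysteine that covalent CDK7 inhibitors bind is replaced by serine. CDK7 is a kinase of the transcription initiation machinery and CDK12 and CDK13 are kinases of transcription elongation. Both lines had 7 treatments of 24 h: DMSO, the solvent control; YKL, a covalent CDK7 inhibitor, at 500 nM or 2 µM; THZ531, a covalent CDK12 and CDK13 inhibitor; THZ1, a covalent inhibitor of CDK7 that also reaches CDK12 and CDK13; and Combo 500 nM or Combo 2 µM. Polyadenylated RNA was sequenced in 3 libraries per group. The column names of the combinations hold both the THZ531 number and the code of the YKL columns, so the combinations are read here as THZ531 with YKL at the dose named. The doses of THZ531 and THZ1 are not stated in the labels, so values for THZ1, THZ531 and YKL stand side by side and were not tested against each other. Orders of group levels describe these libraries and do not rank the compounds. The labels do not say whether the C312S line is 1 clone, nor whether the libraries come from separate cultures, so p-values cover the spread of these libraries only, and that spread may be technical.

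Proteins of this family meet at the outer mitochondrial membrane. Pro-survival members hold the effectors and the BH3-only proteins in check, and effectors that escape them form pores that release cytochrome c, which starts the caspase cascade. BH3-only proteins sense damage and either occupy the pro-survival members or engage the effectors directly. MCL1 is known for short-lived messenger RNA and protein, which is why it is often followed when kinases of transcription are inhibited.

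Promoters are shown for BAX, PMAIP1 and BCL2L1, an effector, a BH3-only and a pro-survival member that, besides BCL2L2, were called in 1 direction with at least 5 of the 6 WT treatments. They are the 250 bases upstream of the RefSeq start on GRCh38.p14, printed 5′ to 3′ on the gene's strand. Capitals mark the E-box CACGTG, the letters that MYC and USF proteins bind, and the cyclic AMP response half-site TGACG, the letters that ATF and CREB proteins bind, each searched on both strands, so that the half-site also reads CGTCA. The BAX window lies at chr19:48954625-48954874 on the plus strand, the PMAIP1 window at chr18:59899746-59899995 on the plus strand and the BCL2L1 window at chr20:31723964-31724213 on the minus strand.
BAX: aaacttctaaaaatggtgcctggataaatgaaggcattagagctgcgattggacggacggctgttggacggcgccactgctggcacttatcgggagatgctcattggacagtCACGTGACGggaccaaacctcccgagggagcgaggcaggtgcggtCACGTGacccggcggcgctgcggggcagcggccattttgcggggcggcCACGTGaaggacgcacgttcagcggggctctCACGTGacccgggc
PMAIP1: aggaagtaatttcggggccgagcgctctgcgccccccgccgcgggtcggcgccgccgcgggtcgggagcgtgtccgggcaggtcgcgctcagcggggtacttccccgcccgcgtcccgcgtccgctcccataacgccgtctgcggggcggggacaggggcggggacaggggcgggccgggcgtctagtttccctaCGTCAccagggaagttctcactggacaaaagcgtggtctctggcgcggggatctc
BCL2L1: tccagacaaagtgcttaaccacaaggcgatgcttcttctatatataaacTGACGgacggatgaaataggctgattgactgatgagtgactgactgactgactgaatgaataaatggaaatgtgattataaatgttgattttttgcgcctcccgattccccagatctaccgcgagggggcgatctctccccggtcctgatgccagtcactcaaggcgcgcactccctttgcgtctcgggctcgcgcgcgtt

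The BAX window held 4 E-boxes, the first of which overlaps the half-site. Of the 35116 RefSeq windows of the same length, 6.34% held CACGTG and 21.2% held TGACG. RefSeq windows were found for 8 of the 10 genes, all but MCL1 and BCL2L2. These genes had 13 windows, 5 for BID, 2 for BCL2L1 and 1 for each of the others. CACGTG occurred in 4 of the 13 windows, those of BAX and BBC3 and 2 of BID, and TGACG in 4, those of BAX, PMAIP1 and BCL2 and 1 of BCL2L1. By gene, CACGTG occurred in 3 of the 8 and TGACG in 4. The 2 BID windows with CACGTG overlap each other. The BCL2L1 window printed also held TATAAA, on either strand, 2 times, against 10.7% of all windows with at least 1, while the other BCL2L1 window, at chr20:31722869-31723118, held none of these 3 motifs. A match is a run of letters and was not tested for binding.

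Levels are per length and relative to the other genes of the same library. The sum of all gene FPKM was 794374 on average in C312S DMSO and 852330 in C312S THZ1, while the remaining C312S groups ran from 556810 to 591154 and the WT groups from 455948 to 628311. The C312S DMSO libraries therefore stood apart from every treated C312S group but THZ1, and each C312S value against DMSO rests on them. The table also holds 92 ERCC spike-in RNAs, synthetic RNAs added to a sample, of which 23 were over 1 FPKM in all libraries. The sources used here do not give whether they were added per cell or per amount of RNA. The level of spike-ins against genes, relative to own DMSO, was 2.44 log2 units in WT THZ1, 1.11 in WT Combo 2 µM, 0.68 in WT YKL 500 nM, 0.40 in WT Combo 500 nM, 0.15 in WT YKL 2 µM and -0.08 in WT THZ531. In C312S the same difference was 0.22 with THZ1 and -1.55 to -0.78 with the other 5 treatments. In bulk RNA, fewer cells and less RNA per cell cannot be told apart. Blood cell markers were nearly absent, with HBG1, a fetal globin gene, at 0 in all libraries and the 10 markers summing to 1.16 to 2.62 FPKM, while the 8 fibroblast and epithelial markers summed to 244 to 566 FPKM. Most of that sum was VIM, a filament gene, at 211 to 509 FPKM, and KRT18, a keratin gene, at 23.0 to 43.1, with THY1 at 0.684 to 17.1, COL1A1 at 0.380 to 3.04 and KRT8 at 0.388 to 3.47. CDH1, EPCAM and COL1A2 were at or near 0, none above 0.0555 FPKM.

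In WT DMSO the family spanned a wide range of levels. BAX was at 85.9 ± 1.12 FPKM (SD, n = 3), MCL1 at 56.5 ± 1.97 FPKM and BCL2L1 at 34.7 ± 1.24 FPKM. BID, BAK1 and PMAIP1 followed at 17.1, 16.3 and 14.5 FPKM, then BCL2L2 at 8.64 FPKM. BCL2L11, BCL2 and BBC3 were lowest, at 4.45, 3.33 and 2.82 FPKM. Across the 14 groups the ratio of the highest to the lowest group mean was 4.14 for BCL2L2, 2.68 for PMAIP1, 2.04 for BAX, 1.96 for BID, 1.81 for BBC3, 1.69 for BCL2L11, 1.51 for BCL2L1, 1.40 for BCL2, 1.36 for MCL1 and 1.30 for BAK1. The median of that ratio over all tested genes was 2.26, so 2 of the 10 members ranged more widely than the median gene and 8 less.

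**Figure D1:**
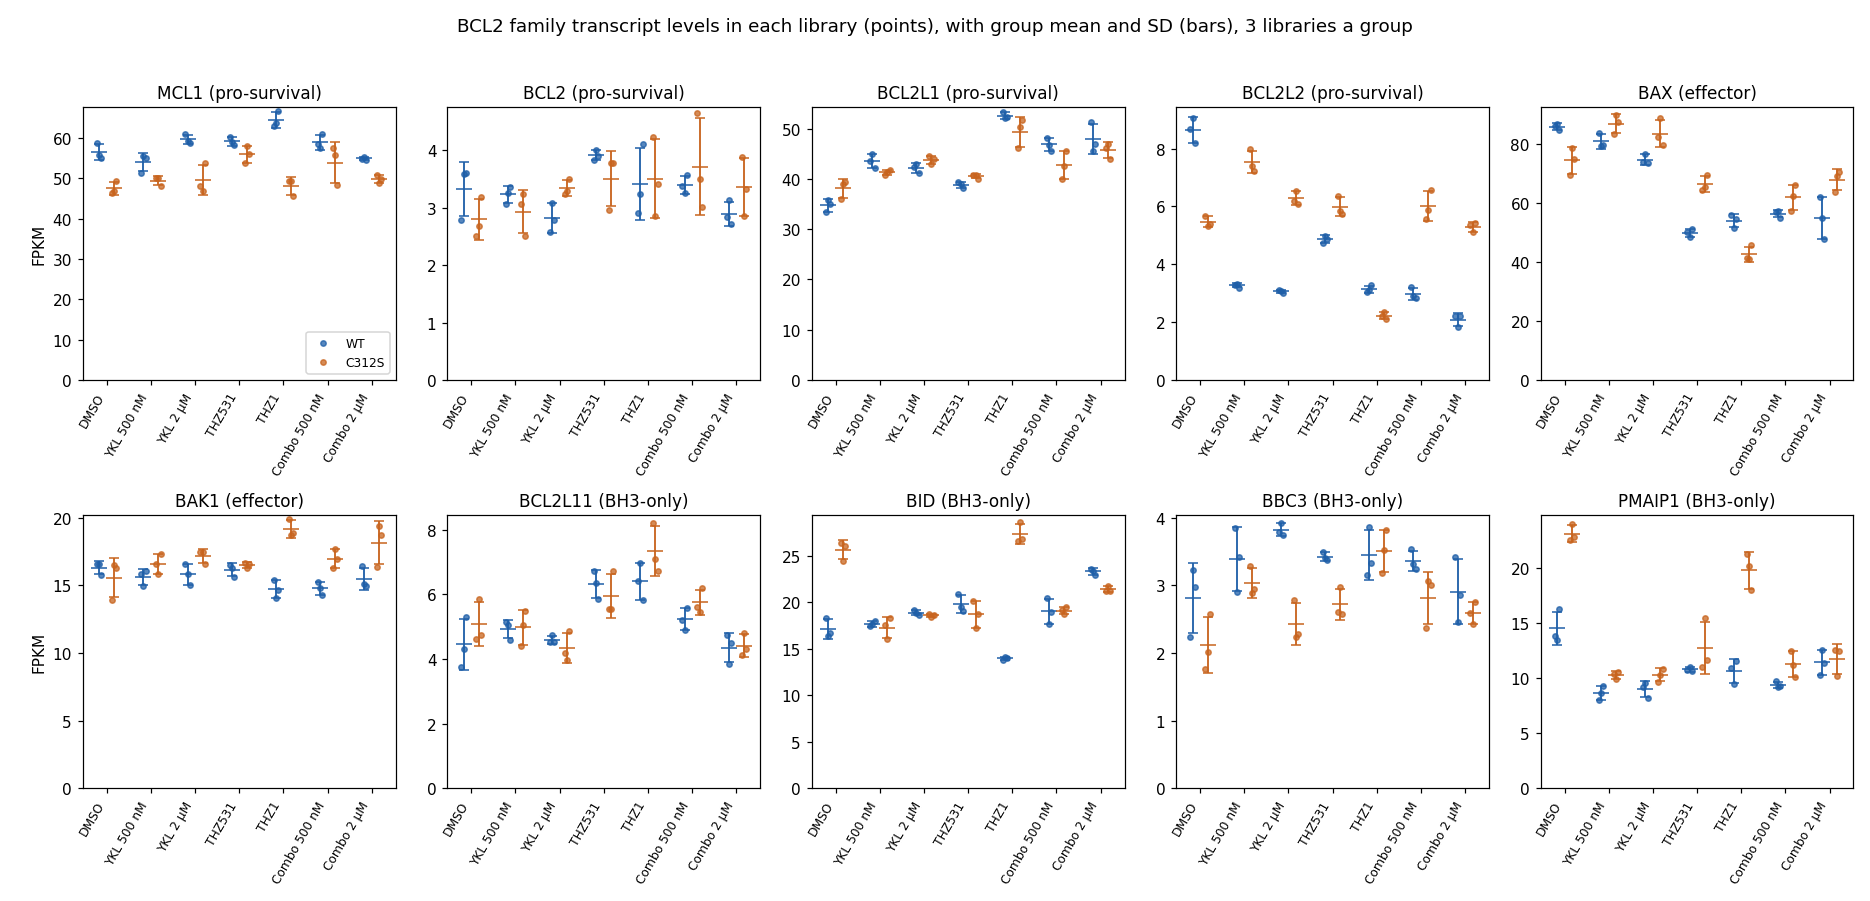
FPKM (vertical axes) of each of the 10 genes in the 14 groups, with 1 point per library and bars for the mean and SD of 3 libraries. BCL2L2 runs from 8.64 FPKM in WT DMSO to 2.08 in WT Combo 2 µM, while the MCL1 group means stay between 47.5 and 64.5 FPKM.

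The comparisons with DMSO ask which members move when each kinase inhibitor is given, and limma on log2(FPKM + 1) was used for all of them, with an adjusted p under 0.05 as the call. In WT, YKL 500 nM changed 3 of the 10 members, against 63.0% of all tested genes, and YKL 2 µM changed 6, against 65.3%. THZ531 changed 6 members, against 46.9%, and THZ1 changed 9, against 68.8%. Combo 500 nM changed 6, against 68.2%, and Combo 2 µM changed 5, against 77.1%. Since so many genes passed everywhere, these shares do not set the family apart. The median absolute log2 change of the members was 0.11 with YKL 500 nM, against 0.24 over all tested genes, 0.35 with THZ1, against 0.30, and 0.23 with Combo 2 µM, against 0.40.

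In WT, 3 members passed with all 6 treatments in 1 direction: BCL2L2 fell, PMAIP1 fell and BCL2L1 rose. BAX fell with 5 of the 6. The share of all tested genes called lower was 22.9% to 38.1% over these comparisons, and the share called higher 24.0% to 38.9%. BCL2L2, PMAIP1 and BAX were also lower in each of those comparisons when libraries were scaled to equal spike-in level, although BAX with YKL 2 µM was 0.09 and not called with total-FPKM scaling, which sets the summed FPKM equal. The BCL2L1 rise is one on the deposited scale, since with spike-in scaling BCL2L1 was lower with YKL 500 nM, THZ1 and Combo 2 µM and not called with the other 3.

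**Figure D2:**
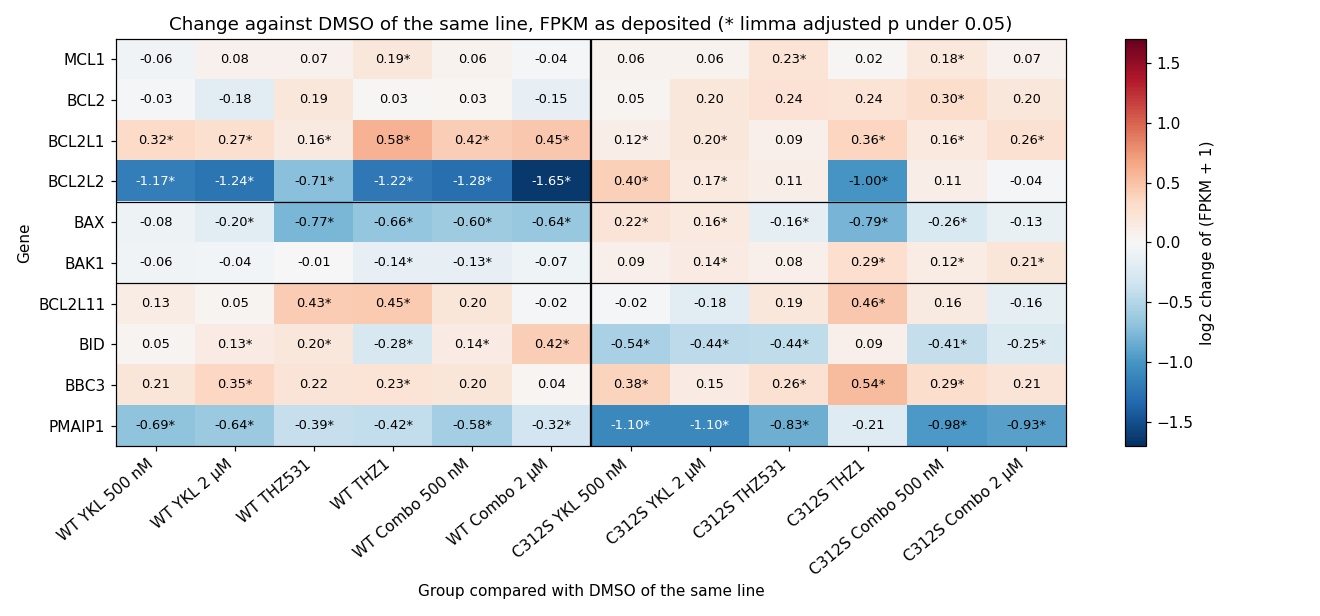
Log2 change of each member against the DMSO libraries of its own line for the 6 treatments in WT and in C312S, on the deposited scale, with an asterisk where the adjusted p was under 0.05. BCL2L2 is called lower in all 6 WT columns and in C312S only with THZ1 on this scale, whereas the BCL2L1 rises with YKL 500 nM, THZ1 and Combo 2 µM in WT turn to falls with spike-in scaling.

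MCL1, the pro-survival protein that holds BAK1 and BCL2L11 in check, kept a high level in every group. In WT it was 58.7, 55.8 and 54.9 FPKM in the 3 DMSO libraries and 63.0, 63.8 and 66.7 FPKM in those with THZ1. The THZ1 libraries all lay above the DMSO libraries, and the change was 0.19 log2 units (95% interval 0.09 to 0.29, adjusted p = 0.00118). With the other 5 WT treatments MCL1 was between -0.06 and 0.08, and none passed on the deposited scale. In C312S it rose with THZ531 (0.23, adjusted p = 0.000111) and with Combo 500 nM (0.18, 0.00214). The Combo 500 nM libraries, from 48.2 to 57.7 FPKM, overlapped those of DMSO, and that call was lost when only the groups compared were fitted. With THZ1 MCL1 was 49.3, 49.4 and 45.6 FPKM against 46.3, 46.9 and 49.4 in DMSO, with the libraries overlapping. The order of the group means ran from WT THZ1 at 64.5 FPKM to C312S DMSO at 47.5 FPKM, and only the first step, from WT THZ1 to WT YKL 2 µM, was between libraries that do not overlap. With spike-in scaling the WT THZ1 change was -2.18, called lower. That change was 0.02 and not called with total-FPKM scaling. WT YKL 500 nM, YKL 2 µM and Combo 500 nM were then 0.17, 0.37 and 0.23, all called higher. MCL1 with WT YKL 2 µM was also called, at 0.11, with median-ratio scaling.

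BCL2, the founding pro-survival member, was low and moved little. No WT treatment passed for BCL2 by limma, also at an unadjusted p under 0.05. Its highest group was WT THZ531, at 3.84, 4.01 and 3.90 FPKM, against 2.78, 3.59 and 3.60 in WT DMSO, a change of 0.19 (interval -0.04 to 0.42). In C312S it rose with Combo 500 nM only, by 0.30 (adjusted p = 0.0189), and that call was lost without Combo 500 nM replicate 1 (0.17), DMSO replicate 1 (0.25) or DMSO replicate 2 (0.28). THZ531 (0.24) and THZ1 (0.24) were not called, but both passed without DMSO replicate 3 (0.32 and 0.31), THZ531 without its replicate 1 (0.34) and THZ1 without its replicate 2 (0.34). With median-ratio scaling THZ531 was 0.29 and called. No neighbouring pair of the 14 groups was apart in its libraries.

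BCL2L1, whose long form BCL-XL is pro-survival and whose short form is not, rose in WT with each treatment on the deposited scale. Its DMSO libraries held 33.4, 35.8 and 35.0 FPKM. The YKL 500 nM libraries held 43.7, 45.0 and 42.3 FPKM, the THZ531 libraries 39.4, 38.9 and 38.1 and the THZ1 libraries 53.3, 52.0 and 52.4. Every treated library lay above every DMSO library. The WT change was 0.16 (interval 0.07 to 0.25, adjusted p = 0.00446) with THZ531 and 0.58 (interval 0.49 to 0.67, adjusted p = 3.68e-13) with THZ1. YKL 500 nM, YKL 2 µM, Combo 500 nM and Combo 2 µM gave 0.32, 0.27, 0.42 and 0.45. With spike-in scaling these 6 values were -0.32 at YKL 500 nM, 0.17 at YKL 2 µM, 0.23 for THZ531, -1.77 with THZ1, 0.04 with Combo 500 nM and -0.64 with Combo 2 µM, of which the first, THZ1 and the last were called.

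In C312S, BCL2L1 rose with 5 of the 6 treatments. It was 35.9, 38.9 and 39.5 FPKM in C312S DMSO and 46.1, 50.3 and 51.7 FPKM in C312S THZ1, a change of 0.36 (adjusted p = 1.59e-08) between libraries that do not overlap, which was 0.14 and not called with spike-in scaling. THZ531 alone gave 0.09 and was not called, but passed at 0.11 without DMSO replicate 3. The call with YKL 500 nM, 0.12, was lost without DMSO replicate 1 (0.07) or YKL 500 nM replicate 3 (0.11). In the order of all 14 groups WT THZ1 came first and WT DMSO last, and 3 of the 13 neighbouring pairs were apart: WT THZ1 above C312S THZ1, C312S THZ531 above WT THZ531, and C312S DMSO above WT DMSO.

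BCL2L2, which encodes the pro-survival protein BCL-w, had the widest range of the 10 genes and fell in WT with every treatment. Its WT DMSO libraries held 8.67, 9.06 and 8.19 FPKM. YKL 500 nM left 3.29, 3.33 and 3.19 FPKM, and YKL 2 µM 3.12, 3.07 and 3.02. THZ531 left 4.74, 4.99 and 4.88 FPKM, THZ1 3.05, 3.09 and 3.27, Combo 500 nM 3.22, 2.90 and 2.84 and Combo 2 µM 2.2, 1.83 and 2.23. No treated library reached a DMSO library. The change was -1.17 with YKL 500 nM (interval -1.28 to -1.07, adjusted p = 2.41e-18), -0.71 with THZ531 (interval -0.82 to -0.61, adjusted p = 3.7e-12) and -1.65 with Combo 2 µM (interval -1.75 to -1.54, adjusted p = 2.22e-22). These log2 values include the added 1, which narrows changes at this level, and the ratio of the mean FPKM with Combo 2 µM was 0.241. Every scaling kept the fall, and with spike-in scaling it ran from -0.69 with THZ531 to -2.92 with THZ1.

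In C312S, BCL2L2 was called lower with THZ1 and with no other treatment. C312S DMSO held 5.69, 5.32 and 5.40 FPKM and C312S THZ1 2.21, 2.36 and 2.10 FPKM, a change of -1.0 (interval -1.11 to -0.90, adjusted p = 1.65e-16). YKL 500 nM gave 7.98, 7.39 and 7.24 FPKM, a rise of 0.40 (adjusted p = 4.25e-08), and YKL 2 µM gave 6.20, 6.55 and 6.08, a rise of 0.17 (adjusted p = 0.00471). THZ531 and the combinations gave 0.11, 0.11 and -0.04, not called. Without DMSO replicate 1, THZ531 and Combo 500 nM both passed at 0.14, THZ531 also passed at 0.14 without its replicate 3 and Combo 500 nM at 0.16 without its replicate 1. With total-FPKM scaling Combo 2 µM was 0.31 and called, and with spike-in scaling 0.64, while the THZ1 value was -0.99 and -0.97.

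The order of BCL2L2 levels put WT DMSO first at 8.64 FPKM, then C312S YKL 500 nM at 7.54 and C312S YKL 2 µM at 6.28. C312S Combo 500 nM, THZ531, DMSO and Combo 2 µM followed at 6.01, 5.99, 5.47 and 5.29 FPKM. Every treated WT group came below these, from 4.87 FPKM with THZ531 to 2.08 with Combo 2 µM, with C312S THZ1 among them at 2.23. Libraries of neighbouring groups did not overlap at 6 of the 13 steps. WT YKL 500 nM, THZ1, YKL 2 µM and Combo 500 nM, at 3.27, 3.14, 3.07 and 2.98 FPKM, overlapped in their libraries at each step between them. The YKL 500 nM libraries, from 3.19 to 3.33 FPKM, nonetheless lay above those of YKL 2 µM, from 3.02 to 3.12.

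The BCL2L2 row needs care because RefSeq (GRCh38.p14) lists a read-through gene, BCL2L2-PABPN1, that joins it to its neighbour PABPN1, and reads in the shared exons can be assigned to either row. In WT DMSO the BCL2L2-PABPN1 row held 96.4 ± 10.2 FPKM. In WT it fell with all 6 treatments on the deposited scale, by 0.35 and 0.52 with YKL at 500 nM and 2 µM, 0.17 with THZ531, 0.46 with THZ1, 0.56 with Combo 500 nM and 0.77 with Combo 2 µM, in each case less than BCL2L2. With spike-in scaling the THZ531 value of BCL2L2-PABPN1 was -0.10 and not called. Of the 2 rows BCL2L2-PABPN1 and PABPN1, 1 stayed called lower with THZ531 under total-FPKM scaling. PABPN1, which binds poly(A) tails, fell in the same 6 comparisons, by 0.41 to 1.32, with the THZ531 call lost with spike-in scaling and both YKL calls lost with total-FPKM scaling. In C312S, BCL2L2-PABPN1 rose by 0.17 to 0.40 with the 5 treatments other than THZ1 and fell by 0.19 with THZ1. How far the 3 rows exchange reads was not tested.

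**Figure D3:**
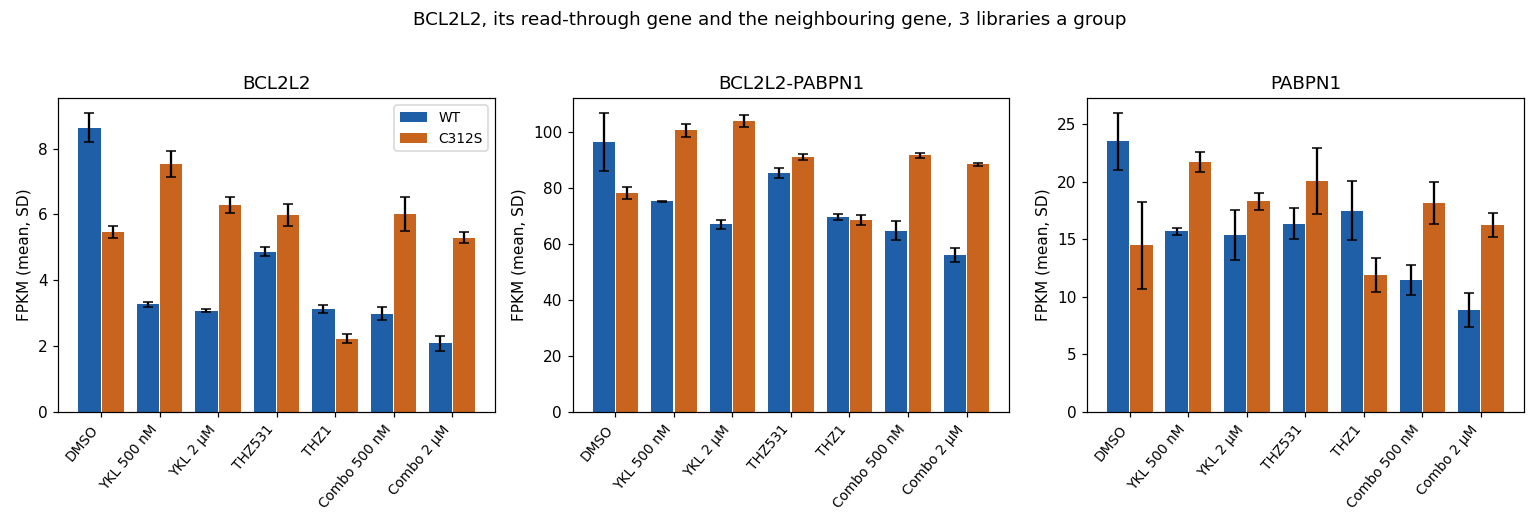
Mean FPKM of BCL2L2, BCL2L2-PABPN1 and PABPN1 in the 14 groups, as bars from 0 with the SD of 3 libraries. The WT DMSO bar of BCL2L2 (8.64 FPKM) exceeds every other bar of that gene, and reads may be shared between the 3 rows.

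BAX, an effector that moves to mitochondria and forms pores, was the most abundant member in WT DMSO and fell with every WT treatment that held THZ531 or THZ1. Its WT libraries held 86.1, 86.9 and 84.7 FPKM with DMSO, 50.2, 48.4 and 51.2 with THZ531 and 55.9, 51.7 and 54.5 with THZ1. Combo 500 nM left 57.1, 57.2 and 54.9 FPKM and Combo 2 µM 62.2, 55.1 and 47.9, and none of these 12 libraries reached a DMSO library. The change was -0.77 with THZ531 (interval -0.90 to -0.64, adjusted p = 2.73e-11), -0.66 with THZ1, -0.60 with Combo 500 nM and -0.64 with Combo 2 µM. With YKL alone the libraries held 84.0, 79.5 and 79.7 FPKM at 500 nM, a change of -0.08 that was not called, and 74.0, 76.8 and 73.6 FPKM at 2 µM, a change of -0.20 (adjusted p = 0.0068). The 2 µM value was 0.09 and not called with total-FPKM scaling, and the 500 nM value was then 0.15 and called, while the falls with the other 4 treatments kept their sign under every scaling.

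In C312S, BAX was called lower with THZ1, THZ531 and Combo 500 nM and higher with both YKL doses. C312S DMSO held 69.6, 78.9 and 75 FPKM and THZ1 left 41.5, 41.0 and 45.7, the lowest of all 14 groups, a change of -0.79 (interval -0.92 to -0.66, adjusted p = 2.46e-12) that was -0.88 with total-FPKM and -0.99 with spike-in scaling. With THZ531 the libraries held 64.4, 65.6 and 69.6 FPKM and lay just below the lowest DMSO library. That change, -0.16, was called but lost without THZ531 replicate 1 (-0.14) or 2 (-0.15) or DMSO replicate 2 (-0.12) or 3 (-0.15), and it turned to 0.32 with total-FPKM scaling. YKL raised BAX by 0.22 at 500 nM and by 0.16 at 2 µM, the second call being lost without DMSO replicate 1 or YKL 2 µM replicate 2 (0.12 in both). Combo 500 nM gave -0.26, which turned to 0.24 with total-FPKM scaling, and Combo 2 µM -0.13, not called, which passed without Combo 2 µM replicate 3 (-0.16) or DMSO replicate 1 (-0.18). In the order of levels, WT THZ1 lay above WT THZ531 and WT THZ531 above C312S THZ1 with no overlap, and 4 of the 13 neighbouring pairs were apart.

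BAK1, the effector that resides in the mitochondrial membrane, varied least. It was 16.6, 16.6 and 15.8 FPKM in WT DMSO and 15.4, 14.1 and 14.7 in WT THZ1, with no overlap and a change of -0.14 (adjusted p = 0.0231). That call was lost without DMSO replicate 1 or 2 (-0.13 in both) or THZ1 replicate 2 (-0.11). Combo 500 nM gave -0.13, lost without Combo 500 nM replicate 2 (-0.13) or 3 (-0.11) or DMSO replicate 1 or 2 (-0.12 in both), and 0.02 with total-FPKM scaling. In C312S the direction was the other: THZ1 libraries held 19.9, 18.7 and 18.9 FPKM against 13.9, 16.5 and 16.3 in DMSO, a rise of 0.29 (adjusted p = 3.77e-05) with no overlap that was 0.0719 and not called with spike-in scaling. Combo 2 µM gave 0.21 and was called. The rises with YKL 2 µM (0.14) and Combo 500 nM (0.12) were each lost without 3 libraries, and without DMSO replicate 1 they were 0.06 and 0.05. YKL 2 µM replicates 1 and 2 (0.12 in both) and Combo 500 nM replicates 2 (0.09) and 3 (0.12) were the others. No neighbouring pair in its order was apart.

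PMAIP1 encodes NOXA, a BH3-only protein that binds MCL1 and speeds its loss, and it fell in WT with all 6 treatments. WT DMSO held 13.8, 13.5 and 16.2 FPKM. YKL 500 nM left 7.99, 8.6 and 9.31 FPKM, THZ531 10.8, 11 and 10.6, THZ1 10.9, 9.44 and 11.6 and Combo 2 µM 10.2, 12.6 and 11.4. No library of these 4 groups reached a DMSO library. The changes were -0.69 with YKL 500 nM (interval -0.88 to -0.49, adjusted p = 2.5e-07), -0.64 at the higher dose, -0.39 with THZ531, -0.42 with THZ1, -0.58 with Combo 500 nM and -0.32 with Combo 2 µM. All 6 stayed below 0 with spike-in scaling, from -2.53 with THZ1 to -0.34 with THZ531.

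C312S DMSO and C312S THZ1 had the highest PMAIP1 levels of the study. Their libraries held 22.5, 24.0 and 22.8 FPKM and 21.3, 20.2 and 18.0 FPKM, above every WT library and above the other C312S libraries, which ran from 9.68 to 15.4 FPKM. The THZ1 change in C312S, -0.21, did not pass (adjusted p = 0.0504), and it passed without THZ1 replicate 1 (-0.27). The other 5 treatments gave -1.10 and -1.10 with YKL, -0.83 with THZ531 and -0.98 and -0.93 with the combinations, and all 5 were called. The same DMSO and THZ1 libraries are those with the highest summed FPKM, and the part of that in the PMAIP1 difference was not tested. With total-FPKM scaling the 5 values were -0.61, -0.62, -0.37, -0.49 and -0.52, and with spike-in scaling they were 0.00, 0.10, 0.70, 0.19 and -0.14.

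BID, a BH3-only protein that caspase-8 cleaves into its active form, moved in both directions in WT. WT DMSO held 18.3, 16.3 and 16.7 FPKM, THZ1 13.8, 14.1 and 14 and Combo 2 µM 23.6, 23.4 and 22.9. The THZ1 libraries lay below and the Combo 2 µM libraries above all DMSO libraries. The changes were -0.28 (interval -0.38 to -0.18, adjusted p = 1.01e-05) and 0.42 (interval 0.32 to 0.53, adjusted p = 3.08e-09), the second turning to -0.65 with spike-in scaling. THZ531 gave 0.20 (adjusted p = 0.00137). YKL 2 µM gave 0.13, lost without DMSO replicate 2 (0.10), DMSO replicate 3 (0.12) or YKL 2 µM replicate 1 (0.12), and Combo 500 nM 0.14, lost without Combo 500 nM replicate 1 (0.09) or DMSO replicate 2 (0.11). Combo 500 nM turned to -0.23, not called, with spike-in scaling.

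C312S THZ1 and C312S DMSO were also the highest groups for BID, at 26.6, 28.6 and 26.8 FPKM and 26.4, 24.5 and 26.1 FPKM. The C312S treatments other than THZ1 gave -0.54 and -0.44 with YKL, -0.44 with THZ531, and -0.41 and -0.25 with the combinations, all called. With total-FPKM scaling these were -0.06, 0.04, 0.03, 0.08 and 0.16, and with spike-in scaling 0.56 to 1.11, so the fall of BID in C312S holds only on the deposited scale and the median-ratio scale. Its order held 6 steps of 13 without overlap, among them each of the 4 highest groups from the next: C312S THZ1, C312S DMSO, WT Combo 2 µM and C312S Combo 2 µM.

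BCL2L11 encodes BIM, a BH3-only protein that binds all pro-survival members. It rose in WT with THZ531 and with THZ1. DMSO libraries held 3.75, 4.32 and 5.29 FPKM, THZ531 libraries 6.74, 6.37 and 5.87 and THZ1 libraries 6.40, 6.98 and 5.83, with no overlap of either with DMSO. The changes were 0.43 (interval 0.24 to 0.63, adjusted p = 0.000428) and 0.45 (interval 0.25 to 0.64, adjusted p = 0.000121), the THZ1 value turning to -1.47 with spike-in scaling. YKL 500 nM, YKL 2 µM and the combinations gave 0.13, 0.05, 0.20 and -0.02, not called. YKL 500 nM passed without DMSO replicate 3 (0.24), and Combo 500 nM passed without its replicate 2 (0.24) or DMSO replicate 3 (0.31). In C312S it rose with THZ1, from 4.62, 5.87 and 4.75 to 8.23, 7.10 and 6.74 FPKM, by 0.46 (adjusted p = 1e-04), and that was the highest group. With spike-in scaling this change was 0.24 and not called. Among the C312S treatments not called, THZ531 (0.28) and Combo 500 nM (0.25) passed without DMSO replicate 2, and YKL 2 µM passed as a fall without DMSO replicate 1 (-0.24) or its own replicate 3 (-0.25).

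BBC3 encodes PUMA, a BH3-only protein, and was the lowest member in WT DMSO. It was 2.24, 3.22 and 2.98 FPKM there and 3.79, 3.93 and 3.74 FPKM with YKL 2 µM, with no overlap and a rise of 0.35 (adjusted p = 0.00305) that was lost, at 0.23, without DMSO replicate 1. THZ1 gave 0.23 (adjusted p = 0.0436), lost without DMSO replicate 1 (0.11), THZ1 replicate 2 (0.16) or THZ1 replicate 3 (0.25) and turned to -1.42 with spike-in scaling. Without DMSO replicate 2, YKL 500 nM (0.28), THZ531 (0.30) and Combo 500 nM (0.28) passed, and YKL 500 nM also passed without its replicate 2 (0.29). In C312S it rose from 1.76, 2.01 and 2.57 FPKM to 3.18, 3.52 and 3.81 with THZ1, by 0.54 (adjusted p = 2.18e-05), or 0.30 (adjusted p = 0.0499) with spike-in scaling, and to 3.29, 2.88 and 2.95 with YKL 500 nM, by 0.38 (adjusted p = 0.000913). The THZ531 rise of 0.26 was lost without THZ531 replicate 2 (0.21) or DMSO replicate 1 (0.18) or 2 (0.24), and that of Combo 500 nM, 0.29, without Combo 500 nM replicate 2 (0.24) or DMSO replicate 1 (0.21). Without DMSO replicate 3, YKL 2 µM (0.25) and Combo 2 µM (0.32) passed. No neighbouring pair of its 14 groups was apart, nor for BCL2L11.

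In C312S as a whole, YKL 500 nM changed 6 of the 10 members, against 76.4% of all tested genes, YKL 2 µM 6, against 75.8%, and THZ531 5, against 74.1%. THZ1 changed 6, against 63.6%, Combo 500 nM 8, against 73.4%, and Combo 2 µM 4, against 68.7%. All of these rest on the C312S DMSO libraries that stand apart. On the deposited scale 4 members were called higher and 2 lower with each YKL dose, 2 and 3 with THZ531, 4 and 2 with THZ1, 5 and 3 with Combo 500 nM and 2 and 2 with Combo 2 µM. With total-FPKM scaling these were 8 and 1, 7 and 1, 8 and 1, 4 and 3, 8 and 1, and 8 and 1. With spike-in scaling they were 9 and 0, 9 and 0, 10 and 0, 1 and 3, 9 and 0, and 9 and 0. Median-ratio scaling gave 7 and 2 for THZ531 and 4 and 2 for Combo 2 µM, and 4 and 3 for THZ1. Fitted on only the groups compared, Combo 500 nM had 0 higher and 3 lower, so none of its rises stayed called. The shares of all tested genes called under these other scalings and that fit are not given, so the counts do not set the family apart.

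Levels were also summed by role, on the deposited scale only, and the order of groups by a sum depends on that scale. The pro-survival sum was 103 ± 1.28 FPKM (SD, n = 3) in WT DMSO and 124 ± 2.44 in WT THZ1, the highest group on it. With spike-in scaling all 10 members were called lower with WT THZ1 than with WT DMSO. The effector sum was 102 ± 1.55 FPKM in WT DMSO, 66.1 ± 1.21 in WT THZ531 and 61.9 ± 2.47 in C312S THZ1, the lowest group. The BH3-only sum was 55.9 ± 0.589 FPKM in C312S DMSO and 58.0 ± 2.34 in C312S THZ1, and 34.4 to 42 in the other 12 groups. The BH3-only sum per pro-survival sum, which no scaling of libraries alters, was 0.377 in WT DMSO and 0.278 in WT THZ1, and 0.596 in C312S DMSO and 0.562 in C312S THZ1. These are sums of RNA and no protein was measured.

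The ratio of MCL1 to PMAIP1 within a library, also free of library scaling, was lowest where PMAIP1 was high. It was 3.92 ± 0.467 (SD, n = 3) in WT DMSO and 4.85 to 6.67 on average in the 6 treated WT groups. It was 2.06 ± 0.106 in C312S DMSO and 2.44 ± 0.11 in C312S THZ1, and 4.29 to 4.82 in the other 5 C312S groups. The libraries of all 6 treated WT groups lay above all 3 WT DMSO libraries, which ran from 3.38 to 4.24. The lowest treated library was at 4.40, with Combo 2 µM, and the highest at 7.20, with YKL 2 µM.

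YKL at 2 µM against YKL at 500 nM asks whether the dose mattered for these genes. In WT, 0 of the 10 members passed by limma, against 6.18% of all tested genes, and 1 did at an unadjusted p under 0.05. That was MCL1, at 51.4, 55.6 and 55.2 FPKM with 500 nM and 61.0, 59.2 and 58.8 FPKM with 2 µM, libraries that do not overlap, a change of 0.14 (interval 0.04 to 0.24, adjusted p = 0.0848). For BCL2L2 the difference between doses in WT was -0.07 (interval -0.18 to 0.04), and for PMAIP1 0.05 (interval -0.15 to 0.25). In C312S, 1 member passed, against 3.67%: BCL2L2 fell by 0.23 log2 units from the lower to the higher dose (adjusted p = 0.0109), a call lost without YKL 2 µM replicate 3 (-0.21) or YKL 500 nM replicate 1 (-0.19). With spike-in scaling 9 of the 10 members were higher at 2 µM in WT, where the median gene differed between the doses by 0.49.

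The combinations against THZ531 alone ask what YKL adds, and they do not involve the DMSO libraries. In WT, adding YKL 500 nM changed 4 members, against 61.1%, and adding YKL 2 µM changed 5, against 73.5%. BCL2L2 went from 4.74, 4.99 and 4.88 FPKM with THZ531 to 3.22, 2.90 and 2.84 with Combo 500 nM and 2.2, 1.83 and 2.23 with Combo 2 µM, 3 ranges that do not overlap. The changes were -0.56 (interval -0.67 to -0.45, adjusted p = 1.15e-10) and -0.93 (interval -1.04 to -0.82, adjusted p = 3.23e-16). BCL2L1 rose by 0.27 and 0.30, which turned to -0.18, not called, and -0.87 with spike-in scaling.

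BCL2L11 was lower with each WT combination than with THZ531 alone, at -0.23 and -0.45 log2 units. The first of these was lost without THZ531 replicate 1 (-0.19) or 2 (-0.23) or Combo 500 nM replicate 1 (-0.23) or 2 (-0.19). BAX was 0.17 with Combo 500 nM, lost without THZ531 replicate 2 (0.15) or Combo 500 nM replicate 2 (0.16) and -0.28 with spike-in scaling. With Combo 2 µM the BAX change of 0.13 was not called, and without Combo 2 µM replicate 3, the library at 47.9 FPKM, it was 0.23 and called. Combo 2 µM also changed BCL2 (-0.34, adjusted p = 0.00959) and BID (0.23, adjusted p = 0.000131), the BID value turning to -0.92 with spike-in scaling.

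In C312S, adding YKL 500 nM to THZ531 changed 0 of the 10 members by limma, against 0.577% of all tested genes, and 0 at an unadjusted p under 0.05. BCL2L2 was 6.38, 5.85 and 5.76 FPKM with THZ531 and 5.57, 5.89 and 6.57 with Combo 500 nM, a difference of 0.00 (interval -0.11 to 0.11). Adding YKL 2 µM changed 5 members, against 34.8%. BCL2L11 fell by 0.36 (adjusted p = 0.00429), from 5.54, 5.56 and 6.73 to 4.11, 4.82 and 4.33 FPKM without overlap. BCL2L1 gave 0.17, BID 0.18, MCL1 -0.16 and BCL2L2 -0.15. The BID and MCL1 calls were lost without THZ531 replicate 2 (0.13 and -0.14), and the BCL2L2 call without THZ531 replicate 1 (-0.11) or Combo 2 µM replicate 2 (-0.13). BAK1, not called, passed at 0.20 without Combo 2 µM replicate 1. With spike-in scaling BCL2L1 and BID turned to -0.60 and -0.56.

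Whether the addition of YKL differs between the lines was tested as the difference of the 2 lines' changes. The mutation cannot be told apart here from other differences between the lines. For BCL2L2 that difference was 0.56 at 500 nM (interval 0.41 to 0.72, adjusted p = 3.48e-07) and 0.78 at 2 µM (interval 0.63 to 0.93, adjusted p = 4.39e-10), C312S minus WT. Both passed under every scaling, at 0.53 and 0.83 with total-FPKM and 0.64 and 1.0 with spike-in scaling. The BCL2L2-PABPN1 row, which may share reads with BCL2L2, also differed by limma, by 0.40 (adjusted p = 3.91e-06) and 0.55 (8.52e-09). PABPN1 gave 0.35, not called, at 500 nM and 0.54 (0.0183) at 2 µM. At 500 nM, 3 of the 10 members differed, against 41.5% of all tested genes, and at 2 µM 2 did, against 53.1%. BCL2L1 (-0.20) and BAX (-0.28) were the other members at 500 nM, and both were lost without C312S Combo 500 nM replicate 1 (-0.15 and -0.22). BAK1 at 2 µM (0.18, adjusted p = 0.0459) was lost without any of 9 of the 12 libraries, at 0.14 to 0.19: WT THZ531 replicates 1 and 2, WT Combo 2 µM replicates 2 and 3, C312S THZ531 replicates 1, 2 and 3 and C312S Combo 2 µM replicates 2 and 3. BAX passed at 2 µM without WT Combo 2 µM replicate 3 (-0.20), as did BCL2L1 without WT Combo 2 µM replicate 2 (-0.16). The differences between the lines for YKL alone or THZ531 alone against DMSO were not tested.

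The THZ1 change differed between the lines for 5 of the 10 members, against 42.2% of all tested genes. BAK1 fell in WT (-0.14) and rose in C312S (0.29), a difference of 0.43 (interval 0.27 to 0.59, adjusted p = 4.66e-05). BID fell in WT (-0.28) and was 0.09, not called, in C312S, a difference of 0.37 (interval 0.22 to 0.51, adjusted p = 8.16e-05). BCL2L1 gave -0.22 (adjusted p = 0.0048), a smaller rise in C312S, which was -0.15 and not called with total-FPKM and 1.91 with spike-in scaling. BCL2L2 gave 0.22 (adjusted p = 0.0202), lost without WT DMSO replicate 2 (0.18) or C312S THZ1 replicate 2 (0.19). Its means went from 8.64 to 3.14 FPKM in WT and from 5.47 to 2.23 in C312S, levels at which the added 1 narrows the 2 changes unequally. Members called higher for the THZ1 difference numbered 3 in the main fit and 2 with a pseudocount of 0.1. MCL1 gave -0.17 (adjusted p = 0.0477), which was lost without WT DMSO replicate 2 (-0.16) or 3 (-0.15), WT THZ1 replicate 2 (-0.18) or 3 (-0.15), C312S DMSO replicate 2 (-0.18) or 3 (-0.14) or C312S THZ1 replicate 3 (-0.13), was not called with a replicate block (adjusted p = 0.0566) and was 1.98 with spike-in scaling. BBC3, at 0.31 and not called, passed without WT DMSO replicate 1 (0.43), WT THZ1 replicate 2 (0.38) or C312S DMSO replicate 3 (0.42). For BAX (-0.13, interval -0.31 to 0.05), BCL2L11 (0.01, interval -0.26 to 0.29) and PMAIP1 (0.20, interval -0.07 to 0.48) no difference was called.

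**Figure D4:**
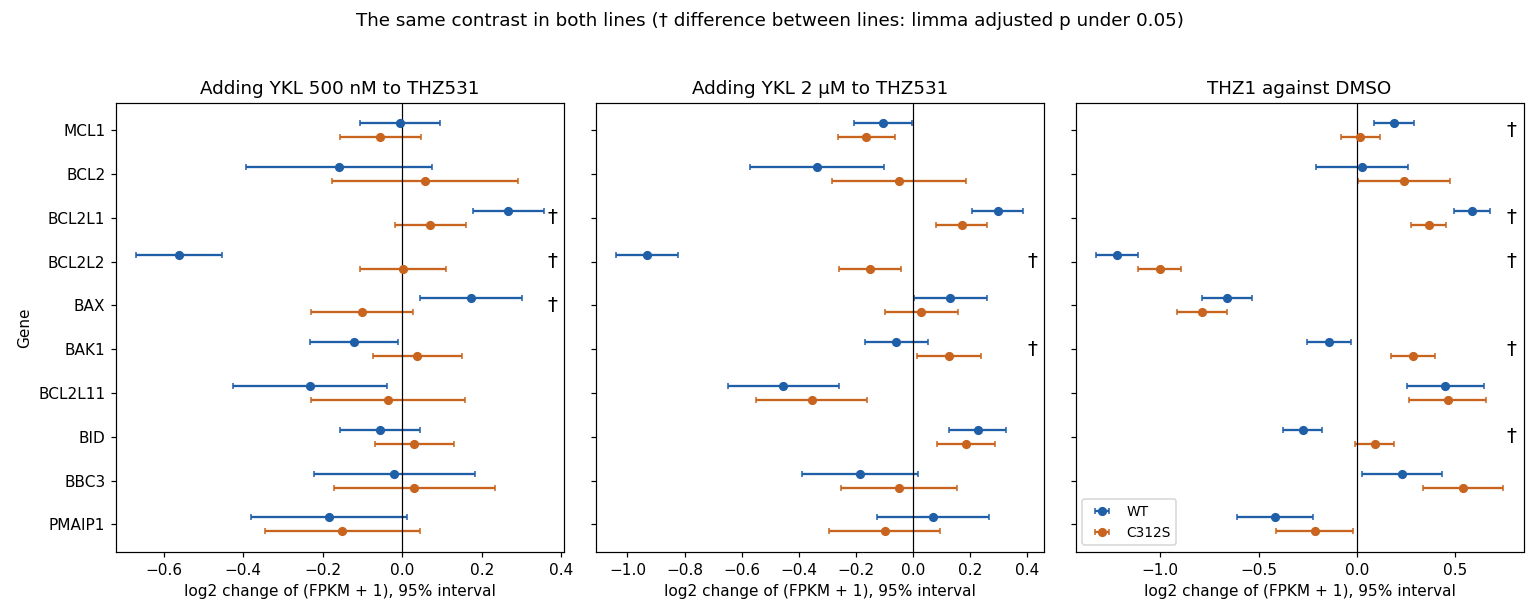
Log2 change of each member in WT and in C312S with its 95% interval, for THZ1 against DMSO and for each combination against THZ531, on the deposited scale, with a dagger where the difference between the lines had an adjusted p under 0.05. For BCL2L2 the WT and C312S intervals are apart for both additions of YKL, and with THZ1 both lines fell, by 1.22 and 1.0; spike-in scaling turns the sign of the THZ1 difference for BCL2L1, MCL1 and BAX.

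Without inhibitor, 7 of the 10 members differed between C312S and WT, against 79.2% of all tested genes. PMAIP1 was higher in C312S DMSO by 0.64 (adjusted p = 4.14e-07) and BID by 0.56 (adjusted p = 7.46e-12), both between libraries that do not overlap. BCL2L2, MCL1, BAX and BBC3 were lower in C312S DMSO, at -0.58, -0.24, -0.21 and -0.29 log2 units. The BBC3 call was lost, at -0.21, without WT DMSO replicate 2 or C312S DMSO replicate 1. BCL2L1 was higher by 0.13, a call lost, at 0.10, without WT DMSO replicate 1 or C312S DMSO replicate 3. BCL2 (-0.19) and BCL2L11 (0.16) were not called, and passed without WT DMSO replicate 1 (-0.28) and WT DMSO replicate 3 (0.27). With total-FPKM scaling the PMAIP1 and BID differences were 0.16 and 0.07, neither called, and BCL2L1 was -0.36, while with spike-in scaling the 3 were -0.73, -0.82 and -1.28 and the median gene had shifted by -1.15.

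With THZ531 in both lines, which leaves the DMSO libraries out, 2 members differed, against 30.4%. BCL2L2 was higher in C312S by 0.25 (adjusted p = 0.000466) and BAX by 0.41 (adjusted p = 7.04e-06). BAX held 50.2, 48.4 and 51.2 FPKM in WT and 64.4, 65.6 and 69.6 in C312S, and the libraries were apart. PMAIP1 was 0.20 there and not called, though it passed at 0.29 without C312S THZ531 replicate 1, the library at 11 FPKM, as did BBC3 at -0.30 without C312S THZ531 replicate 2. BID was -0.08 (interval -0.18 to 0.02).

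The scaling of the libraries bore on direction more than any other choice. Scaling to equal spike-in level shifted the median gene by -1.98 with WT THZ1, -0.93 with Combo 2 µM, -0.58 with YKL 500 nM, -0.34 with Combo 500 nM, -0.10 with YKL 2 µM and 0.06 with THZ531. With that scaling all 10 members were called lower in WT with YKL 500 nM, THZ1 and Combo 2 µM, against 1 higher and 2 lower, 4 and 5, and 2 and 3 on the deposited scale. With total-FPKM scaling, WT YKL 500 nM called 7 members higher and 2 lower, YKL 2 µM 6 and 2, and Combo 500 nM 5 and 3. The shares of all tested genes called under these scalings are not given here or below. Such counts therefore do not set the members, or the listed genes below, apart from other genes. BCL2L2 and PMAIP1 were lower with all 6 WT treatments under each of these scalings. Because 1 was added before taking logs, the shift of a gene on changing the scaling depends on its level, and the median gene is no baseline for each member.

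**Figure D5:**
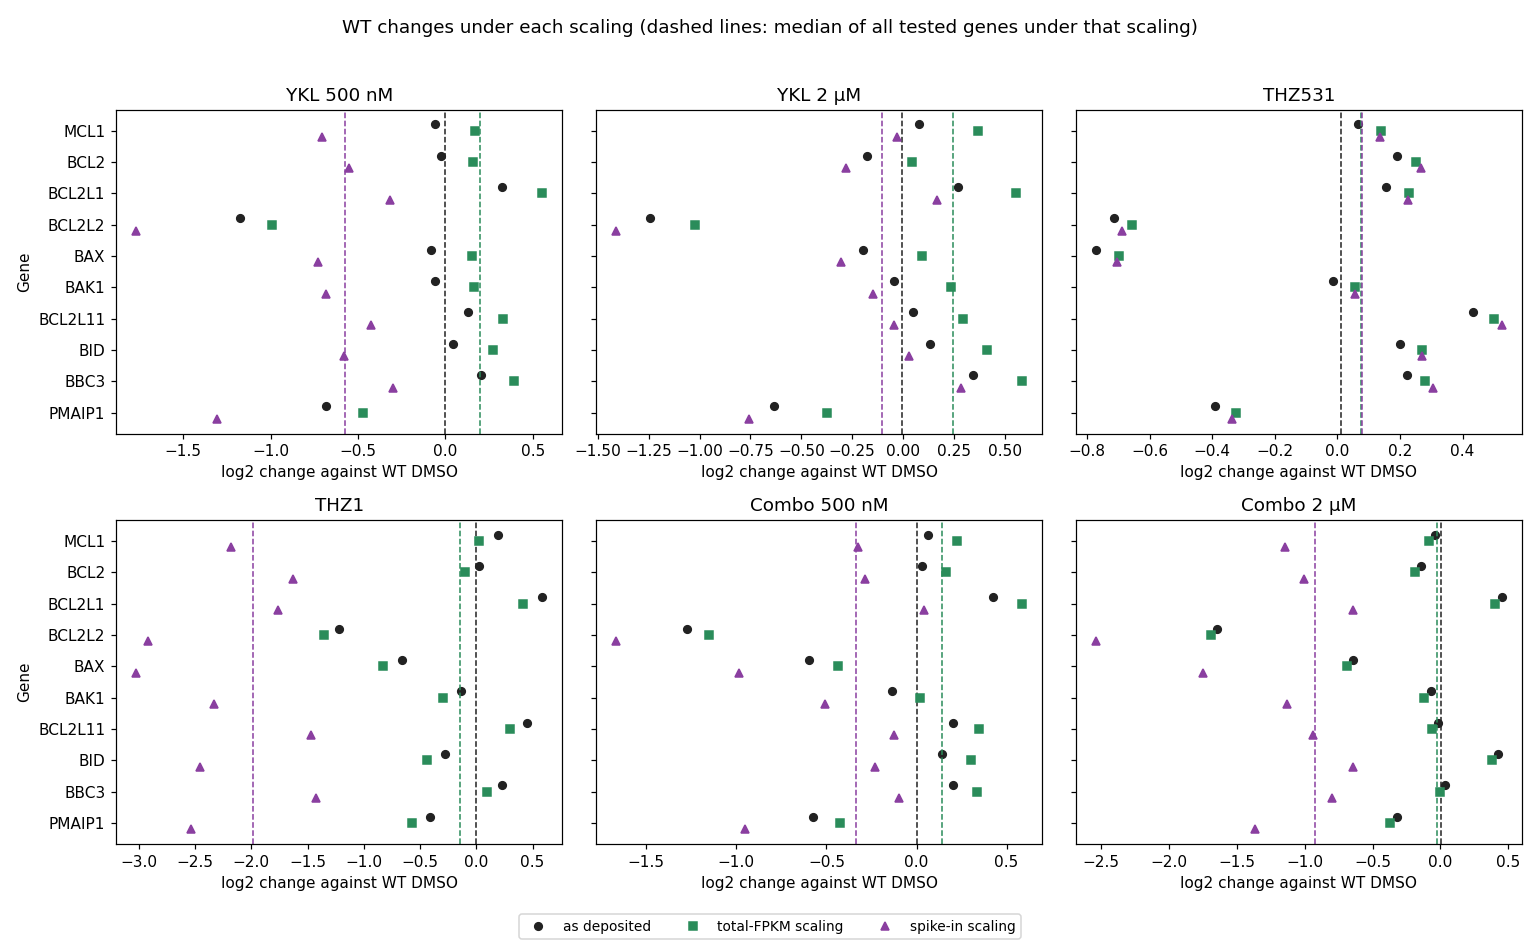
Log2 change of each member in WT against DMSO under the deposited scale, total-FPKM scaling and spike-in scaling, 1 panel per treatment, with dashed lines at the change of the median gene. With THZ1 all spike-in points lie below 0 around a median gene at about -1.99, while BCL2L2 and PMAIP1 lie below 0 in every panel under each scaling.

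Some genes outside the family followed the same course over the 14 group means, which share libraries, lines and normalization, so the correlations are given as a description. For BCL2L2 the most alike were PAN2, a deadenylase subunit (Pearson r = 0.985), and ZNF414 (0.974). For BAX they were SLC39A4, a zinc transporter (0.982), and RAB13, a small GTPase (0.976), and for PMAIP1 SNRPE, a spliceosome protein (0.975), and EIF4A2, a translation helicase (0.969). BID was most like ANKMY2 (0.968) and WDR70 (0.967), and BCL2L1 most like ALAS1, the first enzyme of haem synthesis (0.939), and FHL1 (0.936). For MCL1 they were INA (0.936) and KLF5 (0.934), for BCL2L11 APBB2 (0.904) and CCDC47 (0.860), and for BBC3 SPTLC2 (0.895) and NCOA1 (0.885). BAK1 (PISD, 0.891, and DDX31, 0.832) and BCL2 (C16orf70, 0.860, and SNORA71C, 0.857), whose groups overlap most, had the weakest partners along with BCL2L11.

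Further family members outside the 10 were listed, and 8 of 13 were tested. Over all tested genes, the shares called higher and lower in WT were 31.3% and 31.7% with YKL at 500 nM, 31.8% and 33.5% with YKL at 2 µM, 24.0% and 22.9% with THZ531, 34.0% and 34.8% with THZ1, 34.0% and 34.2% with Combo 500 nM and 38.9% and 38.1% with Combo 2 µM. On the deposited scale, 3 of the 8 rose and 1 fell with YKL at 500 nM, 5 and 2 with YKL at 2 µM, 3 and 3 with THZ531, 3 and 4 with THZ1, 4 and 3 with Combo 500 nM and 4 and 2 with Combo 2 µM. Their median log2 change ran from -0.11 with THZ1 to 0.22 with Combo 2 µM, against -0.01 and 0.01 over all tested genes. With spike-in scaling the counts higher and lower were 0 and 6, 2 and 2, 1 and 1, 0 and 8, 2 and 3, and 1 and 6, and with total-FPKM scaling 5 and 1, 6 and 1, 4 and 1, 1 and 4, 4 and 2, and 4 and 3. BIK, a BH3-only gene, rose with all 6 on the deposited scale, by 0.39 with THZ531 to 1.35 with Combo 2 µM, from 5.6 FPKM in DMSO to 15.7 FPKM, though with spike-in scaling it was -1.23 with THZ1 and -0.02 with YKL 500 nM. BCL2L13, a mitochondrial family member, fell by 0.78 with THZ531 and 0.92 with THZ1 and by 1.12 in C312S THZ1, and these kept their sign under every scaling, whereas with YKL it was 0.18 and 0.16, the first of which was -0.44 with spike-in scaling. BCL2L12 fell with all 6, by 0.23 to 0.57, also in sign under every scaling.

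Downstream of the mitochondria, 10 of 11 apoptosome and caspase genes were tested. On the deposited scale in WT, 5 rose and 2 fell with YKL at 500 nM, 6 and 2 with YKL at 2 µM, 2 and 2 with THZ531, 4 and 5 with THZ1, 4 and 4 with Combo 500 nM and 5 and 1 with Combo 2 µM. With spike-in scaling these were 0 and 8, 2 and 2, 0 and 0, 0 and 10, 1 and 6, and 0 and 10, and with total-FPKM scaling 7 and 1, 8 and 1, 3 and 1, 0 and 5, 6 and 1, and 5 and 1. The direction of this list therefore turns with the scaling. DFFA, the inhibitor of the caspase-activated nuclease, fell by 0.62 with THZ1 and by 0.72 in C312S THZ1, under every scaling.

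Of 9 listed inhibitors of apoptosis and their antagonists 6 were tested, and on the deposited scale WT called 2 higher and 2 lower with YKL at 500 nM, 3 and 1 at 2 µM, 1 and 1 with THZ531, 1 and 2 with THZ1, 2 and 3 with Combo 500 nM and 2 and 2 with Combo 2 µM. With spike-in scaling these were 0 and 6, 0 and 1, 1 and 1, 0 and 6, 0 and 3, and 0 and 5, and with total-FPKM scaling 4 and 1, 5 and 1, 2 and 1, 0 and 4, 3 and 3, and 2 and 3. HTRA2, a mitochondrial protease that antagonises the inhibitors when released, fell by 0.96 with THZ531, 1.13 with THZ1, 0.56 with Combo 500 nM and 0.55 with Combo 2 µM, and by 1.28 in C312S THZ1, under every scaling, whereas with YKL 500 nM it was 0.27, or -0.34 with spike-in scaling. XIAP, which blocks caspases, fell by 0.55 with THZ1, also under every scaling. DIABLO, which binds such inhibitors, rose by 0.75 with Combo 2 µM and BIRC2 by 0.87, but with spike-in scaling these were -0.35 and -0.19.

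Of the death receptor genes 8 of 10 were tested. On the deposited scale WT called 3 higher and 4 lower with each YKL dose, 2 and 2 with THZ531, 1 and 3 with THZ1, and 3 and 3 with each combination. With spike-in scaling these were 0 and 7 with YKL 500 nM, 3 and 4 with YKL 2 µM, 2 and 2, 0 and 8, 0 and 5, and 0 and 7, and with total-FPKM scaling 3 and 0 with each YKL dose, 2 and 2, 0 and 6, 3 and 2, and 3 and 3. FADD, the adaptor that carries death receptor signals, fell with all 6 WT treatments, by 0.21 with YKL 500 nM to 0.99 with Combo 2 µM, and by 0.79 in C312S THZ1. With total-FPKM scaling the values of FADD with YKL were 0.02 and -0.02, not called, and the other falls kept their sign under every scaling.

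Among genes that act on members directly, all 4 listed for the turnover of MCL1 protein were tested, and all 4 rose with WT THZ1 on the deposited scale, where MCL1 RNA was also called higher and where 34.0% of all tested genes were. With total-FPKM scaling 2 of the 4 were called higher there, and MCL1 RNA was not. USP9X, which removes ubiquitin from MCL1, rose by 0.22 to 0.38 with 5 WT treatments, and HUWE1, a ligase that adds it, by 0.41 with THZ1 and fell by 0.70 with Combo 2 µM. With spike-in scaling all 4 were called lower with YKL 500 nM, THZ1 and Combo 2 µM. Of the 4 outer membrane partners, all 4 were called higher with Combo 2 µM on the deposited scale, against 38.9% of all tested genes, and all 4 lower with spike-in scaling. VDAC2, which holds BAK1 at the membrane, was 0.79 there, or -0.33 with spike-in scaling.

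Of 9 transcription regulators known for acting on BH3-only genes 8 were tested. On the deposited scale, 6 fell and 2 rose with each YKL dose, 5 fell with THZ531, 7 with THZ1, 6 with Combo 500 nM and 8 with Combo 2 µM, with none rising in these last 4, against 22.9% to 38.1% of all tested genes called lower. With spike-in scaling 6, 6, 4, 8, 8 and 8 were called lower and 1, with YKL 2 µM, higher, and with total-FPKM scaling 5, 4, 5, 8, 5 and 8 lower and 2, 2, 1, 0, 0 and 0 higher. Their median log2 change was -0.38, -0.33, -0.36, -0.50, -0.40 and -0.64, against -0.01 to 0.01 over all tested genes. ATF4, the factor of the integrated stress response that acts on PMAIP1 and DDIT3, was at 391 FPKM in WT DMSO and fell by 1.08 and 1.33 with YKL at 500 nM and 2 µM, 0.46 with THZ531, 0.72 with THZ1, 1.13 with Combo 500 nM and 1.04 with Combo 2 µM. DDIT3, which encodes CHOP, fell by 1.21 with THZ1 and 0.93 with YKL 2 µM. E2F1, a cell cycle factor, fell by 1.54 with Combo 2 µM. These falls kept their sign under every scaling. How these regulators bear on the members was not tested.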

How the data were processed

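Polyadenylated RNA from 42 libraries, 14 groups of 3, was measured, with a library kit that is stranded per the labels' protocols. The authors deposited FPKM per gene, and hg19, Cuffnorm, Cufflinks 2.2.1 and HISAT2 2.0.4 are named, per the submitters' processing notes, with no order or settings. Read counts were not used here, so depth per library is unknown and no counting intervals are given.

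The filter kept 12816 of 26228 genes, those that reached 1 FPKM in 3 or more libraries. limma 3.58.1 (R 4.3.3, with version 1.17.8 of its data.table package) fitted 14 group means to log2(FPKM + 1) over all libraries, with a trend, which understates changes of low genes. The 23 comparisons were adjusted by Benjamini-Hochberg over all tested genes, with a call at an adjusted p under 0.05 and 95% intervals. The fit was tested on simulated data. Python 3.11.15, pandas 2.3.3 and matplotlib 3.10.9 made tables and figures. Alternatives were 3 scalings (median ratio, total FPKM, spike-in), 3 filters and pseudocounts, a replicate block, fits on only the groups compared, and leaving out each library.

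All 10 members are named in every comparison. Of 7 lists of related genes, up to 3 called genes per direction with at least 5 FPKM were eligible, and for each member the 2 genes most alike. The members and lists were chosen with earlier results of these data known. Some genes that these rules would name are not reported here.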

Additional observations from a re-analysis of the deposited data

Results flagged for a closer look

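All of these are differences between C312S and WT in the change a treatment made, as C312S minus WT in log2 units, and they passed limma's test of that difference unless stated otherwise. The THZ1 change differed for MCL1 by -0.17 (adjusted p = 0.0477), BCL2L1 by -0.22 (0.0048), BCL2L2 by 0.22 (0.0202), BAK1 by 0.43 (4.66e-05) and BID by 0.37 (8.16e-05). BAK1 and BID were higher in C312S than in WT relative to own DMSO under every scaling tried, while MCL1 and BCL2L1 turned sign with spike-in scaling. The summed FPKM of C312S DMSO and C312S THZ1 were close to each other, at 794374 and 852330, and the part of the spike-in level in these 5 differences was not tested.

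Adding YKL 500 nM to THZ531 differed for BCL2L1 by -0.20 (adjusted p = 0.0114), BCL2L2 by 0.56 (3.48e-07) and BAX by -0.28 (0.013). Adding YKL 2 µM differed for BCL2L2 by 0.78 (4.39e-10) and BAK1 by 0.18 (0.0459). The BCL2L2 differences do not rest on the DMSO libraries and passed under each scaling and without each library in turn. They are not particular to that row, since the overlapping BCL2L2-PABPN1 row also differed, by 0.40 and 0.55. How far these rows exchange reads was not tested.

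In 8 further cases all libraries of 1 line lay above its DMSO libraries and all of the other line below, and the difference itself was not tested. For BCL2L2 it was 1.57 with YKL 500 nM, 1.41 with YKL 2 µM and 0.83 with THZ531. For BAX it was 0.31 with YKL 500 nM and 0.36 with YKL 2 µM. For BID it was -0.58 with YKL 2 µM, -0.64 with THZ531 and -0.68 with Combo 2 µM. Each of these 8 uses the C312S DMSO libraries, whose summed FPKM stood apart from those of the C312S groups it is compared with. All 8 are on the deposited scale. With total-FPKM scaling BAX with YKL 500 nM and 2 µM was 0.15 and 0.09 in WT and 0.72 and 0.66 in C312S. BID with YKL 2 µM, THZ531 and Combo 2 µM was then 0.41, 0.27 and 0.38 in WT and 0.04, 0.03 and 0.16 in C312S. Thus BAX and BID had the same sign in both lines, while BCL2L2 kept opposite signs. With spike-in scaling BID with Combo 2 µM was lower in WT and higher in C312S.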

How the results depend on the processing

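The scaling of libraries turned more directions than any other choice, and depth could not be weighed because only FPKM were used. Among values called on the deposited scale or the alternative, 55 turned with spike-in scaling, 17 with total-FPKM scaling and 0 with median-ratio scaling. Over the 230 log2 changes (10 members in 23 comparisons), direction and call stayed the same in 211 with median-ratio scaling, 168 with total-FPKM scaling, 107 with spike-in scaling, 225 with no filter on low values, 228 with a pseudocount of 0.1, 206 with only the groups compared and 183 of 184 with a filter of 5 FPKM, where BCL2 and BBC3 were not tested. Leaving out 1 library kept 1447 of 1560 and turned no called sign.

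With spike-in scaling these values turned sign. WT YKL 500 nM: BCL2L1 -0.32, BCL2L11 -0.42, BID -0.58, BBC3 -0.30. WT THZ1: MCL1 -2.18, BCL2 -1.63, BCL2L1 -1.77, BCL2L11 -1.47, BBC3 -1.42. WT Combo 500 nM: MCL1 -0.32, BID -0.23. WT Combo 2 µM: BCL2L1 -0.64, BID -0.65, BBC3 -0.80. WT YKL 2 µM against 500 nM: BCL2L1 0.48, BCL2L2 0.36, BAX 0.43, BCL2L11 0.38. WT Combo 500 nM against THZ531: BCL2L1 -0.18, BAX -0.28. WT Combo 2 µM against THZ531: BCL2L1 -0.87, BAX -1.04, BID -0.92, PMAIP1 -1.03. C312S YKL 500 nM: BCL2L11 0.92, BID 0.56. C312S YKL 2 µM: BCL2L11 0.84, BID 0.77, PMAIP1 0.10. C312S THZ531: BAX 1.43, BID 1.11, PMAIP1 0.70. C312S Combo 500 nM: BAX 0.96, BID 0.78, PMAIP1 0.19. C312S Combo 2 µM: BCL2L2 0.64, BAX 0.69, BCL2L11 0.50, BID 0.55. C312S Combo 500 nM against THZ531: BCL2L1 -0.30, BCL2L2 -0.34, BAK1 -0.33, BID -0.34, BBC3 -0.27. C312S Combo 2 µM against THZ531: BCL2L1 -0.60, BAX -0.74, BAK1 -0.62, BID -0.56. C312S against WT DMSO: BCL2L1 -1.28, BCL2L11 -1.02, BID -0.82, PMAIP1 -0.73. THZ1 difference between lines: MCL1 1.98, BCL2L1 1.91, BAX 2.03.

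With total-FPKM scaling these turned sign. WT YKL 500 nM: MCL1 0.17, BAX 0.15, BAK1 0.17. WT YKL 2 µM: BAX 0.0911, BAK1 0.23. WT Combo 500 nM: BAK1 0.022. C312S YKL 500 nM: BCL2L11 0.39. C312S YKL 2 µM: BID 0.0364. C312S THZ531: BAX 0.32, BID 0.0271. C312S Combo 500 nM: BAX 0.24, BID 0.084. C312S Combo 2 µM: BCL2L2 0.31, BAX 0.29, BID 0.16. C312S against WT DMSO: BCL2L1 -0.36, BCL2L11 -0.25. For both scalings the cause was not tested.

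The number of the 10 members called moved by over 1.5 times in these cases. With spike-in scaling it was 10 for WT YKL 500 nM, 3 for WT YKL 2 µM, 10 for WT Combo 2 µM, 9 for WT YKL 2 µM against 500 nM, 9 and 10 for WT Combo 500 nM and 2 µM against THZ531, 10 for C312S THZ531, 9 for C312S Combo 2 µM, 0 for C312S YKL 2 µM against 500 nM, 9 and 10 for the C312S combinations against THZ531, 10 for the THZ1 difference between lines, and 1 and 4 for the differences in adding YKL 500 nM and 2 µM. With total-FPKM scaling it was 9 for WT YKL 500 nM, 9 for C312S THZ531, 9 for C312S Combo 2 µM, 3 for C312S Combo 2 µM against THZ531, 5 for C312S against WT THZ531 and 3 for the THZ1 difference. With median-ratio scaling it was 9 for C312S THZ531. Fitted on only the groups compared, with fewer libraries, it was 7 for WT Combo 500 nM against THZ531, 3 for C312S Combo 500 nM, 0 for C312S YKL 2 µM against 500 nM, 3 for C312S Combo 2 µM against THZ531 and 1 for the difference in adding YKL 2 µM, which was also 1 with no filter and with the replicate block. The 3 for C312S Combo 500 nM in that fit were all lower.

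Leaving out 1 library, the number of members called ran from 2 to 5 for WT Combo 500 nM against THZ531, 3 to 6 for C312S THZ531, 0 to 1 for C312S YKL 2 µM against 500 nM, 3 to 6 for C312S Combo 2 µM against THZ531, 3 to 6 for the THZ1 difference between lines, 1 to 3 for the difference in adding YKL 500 nM and 1 to 2 for that in adding YKL 2 µM.

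Replicate numbers were not taken as pairs in the main fit. Of 273 same-numbered pairs across groups, 43 had deviations correlated over 0.1, and the lowest correlation was -0.207. The median was 0.017 against -0.005 for other pairs, and 22 of 42 libraries correlated best with their own number. Whether same-numbered libraries share a preparation was not tested. The replicate block lost 3 calls of the 230: BAK1 with C312S Combo 500 nM (adjusted p = 0.0576), the MCL1 THZ1 difference (0.0566) and the BAK1 difference in adding YKL 2 µM (0.0534).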
